A study of Mus musculus with 16 samples.

Results

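Splenic B cells of mice on 3 starch diets were set together against those of mice on the NP diet, and the genes that moved in the same direction on all 3 starch diets were sought. The 16 libraries were all from NOD.LT mice, a non-obese diabetic strain prone to autoimmune diabetes, aged 15 weeks and kept on their diet for 5 weeks with free access to it. The starch side held 12 libraries, with 4 each from HAMS (high-amylose maize starch), HAMSA (the acetylated form of that starch) and HAMSB (the butyrylated form). The NP side held 4 libraries, and the treatment protocol calls the same diet Gordons. All the libraries of the series are therefore used, chosen by their diet label alone. Libraries are named by diet and by the number in their label. B cells were what remained after antibodies and a magnetic column had held back the other lymphocytes, so traces of other spleen cells stay in the preparations. The labels do not tie libraries to animals, and the design text gives 4 per diet and triplicates at once, so p-values measure the spread between these libraries.

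High-amylose starch resists digestion in the small intestine and is fermented by bacteria in the colon to acetate, propionate and butyrate. Starch that carries acetate or butyrate as an ester releases that acid there as well. These short-chain fatty acids signal through the receptors Ffar2, Ffar3 and Hcar2, and butyrate also inhibits histone deacetylases. In the spleen, B cells share the organ with red pulp macrophages, which clear aged red cells and recycle their iron, and with marginal zone macrophages, which take up particles from the blood.

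Counts assigned to genes ranged from 15053965 to 46206200 in starch libraries, with the shallowest 3 in HAMSA, and from 31707731 to 42752976 in NP libraries. Reads that did not map made up 5.77% ± 2.09 of starch libraries (SD, n = 12) and 3.74% ± 0.158 of NP libraries (SD, n = 4), with a 2-sided exact permutation p of 0.0511 over 1820 splits and an adjusted p of 0.255 over 5 measures. B cell markers were abundant in every library. The 16 genes of the B cell identity list summed to between 17742 and 21795 CPM (counts scaled to a common library total) in starch libraries and between 18528 and 22268 CPM in NP libraries.

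Of 15021 genes tested, 204 differed between the mean of the 3 starch diets and NP at an adjusted p under 0.05 in edgeR's quasi-likelihood test, which is 1.36% of them. Their median log2 change was 0.64 in size. Lower genes numbered 136 (0.905%) and higher genes 68 (0.453%), the shares to set beside the counts of list members below. Without TMM scaling, on library totals, the split was 304 lower and 57 higher. Of the 204, 196 had the same sign in HAMS, HAMSA and HAMSB, 63 higher and 133 lower. The same sign in all 3 diets was also found in 52.5% of all genes tested, and the 3 values share the NP libraries. Choosing genes on the mean of these 3 values also favours 1 sign.

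Agreement in sign was wider than agreement in size. Of those 196 genes, 4 passed the test in each of the 3 diets on its own (Cd163, Mrc1, Abcc3 and Col14a1, all lower). They were the only such genes among the 15021 tested (0.0266%). A further 76 passed in 2 diets, 111 in 1 diet and 5 in none. The change in HAMSB was the smallest of the 3 in 143 of the 196 genes, made up of 56 of the 63 higher genes and 87 of the 133 lower genes. The median size of the log2 change over the 196 was 0.89 in HAMS, 0.73 in HAMSA and 0.37 in HAMSB. How often HAMSB was smallest over all genes was not counted. Taken singly, HAMS, HAMSA and HAMSB had 4.33%, 1.41% and 0.0732% of all genes called against NP, so this order is not particular to the 196. A stricter test asks that each diet differ from NP in the same direction and takes the largest of the 3 p-values per gene. It called 0 genes after adjustment, with 279 genes at an unadjusted p under 0.05 (105 higher and 174 lower), and DESeq2 called 2. CPM of the 12 starch libraries did not overlap those of the 4 NP libraries in 72 of the 204 genes, 57 of them lower on starch, against 1.03% of all genes. The 204 were chosen by a test on these same libraries, which itself favours such separation. Leaving out 1 library moved the count of 204 to between 40 without NP 4 and 487 without HAMS 5.

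Among named genes past the test, with 1 sign in all 3 diets and an average log2 CPM of at least 1, those of tissue macrophages fell furthest on the starch diets. Of the 12 largest falls so ranked, 11 are described here, all of them genes that macrophages are known to express. In each of the 11 every starch library lay below every NP library, as in 0.812% of all genes. Ranking by the fall in these same libraries itself favours such separation. Cd163, the scavenger receptor for haemoglobin bound to haptoglobin (chr6:124304656-124330527, plus strand, GRCm38), had 0.674, 0.412, 0.467 and 0.194 CPM in HAMS, 1.35, 2.14, 2.73 and 2.29 CPM in HAMSA and 1.83, 0.900, 0.645 and 0.129 CPM in HAMSB, against 14.3, 8.91, 7.96 and 6.2 CPM in NP. The lowest NP library was thus above the highest starch library, HAMSA 3, and the log2 change of the starch mean was -3.32 ± 0.36 (SE, edgeR adjusted p = 0.00077). Mrc1, the mannose receptor, had between 0.863 and 4.33 CPM in the 12 starch libraries, with a median of 1.91, against 19.8, 11.4, 10.2 and 8.02 CPM in NP. Its log2 change was -2.53 ± 0.29 (adjusted p = 0.00077). Both fell in each diet, Cd163 by 4.39, 2.15 and 3.42 and Mrc1 by 3.14, 1.90 and 2.54 on the log2 scale in HAMS, HAMSA and HAMSB.

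**Figure D1:**
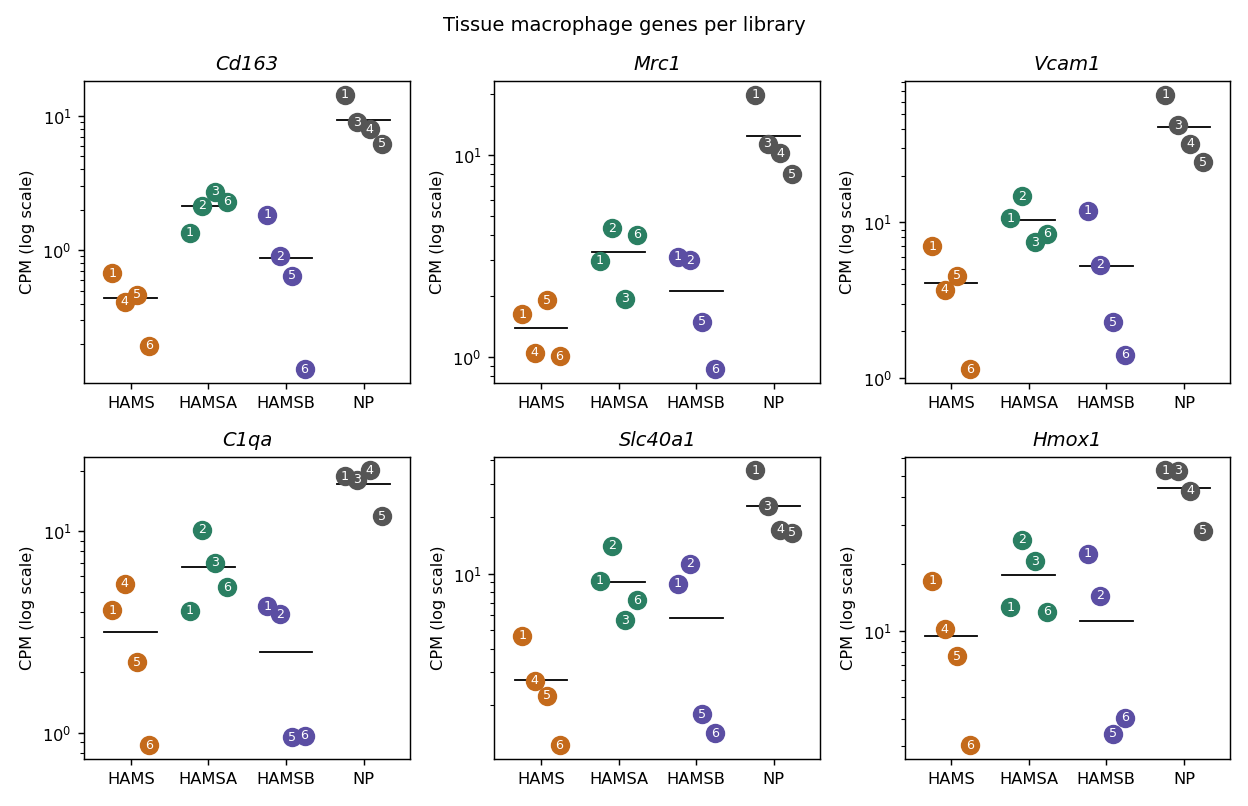
CPM on a log axis of 6 tissue macrophage genes in each library, grouped by diet. Points are libraries with their number and lines are diet means. In each of the 6 genes the 12 starch libraries lie below the 4 NP libraries.

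Genes for handling iron and haem were among them. Hmox1, haem oxygenase, averaged 12.7 ± 7.57 CPM in starch libraries and 44.2 ± 11.7 CPM in NP libraries (SD, n = 12 and 4), a log2 change of -1.85 ± 0.40 with an adjusted p of 0.0349. Slc40a1, the iron exporter ferroportin, averaged 5.87 ± 4.28 CPM on starch and 22.9 ± 8.75 CPM on NP, a log2 change of -2.13 (adjusted p = 0.0211). Within the starch libraries the level of both was lowest in HAMS 6, HAMSB 5 and HAMSB 6, which stood at 1.23 to 1.80 CPM for Slc40a1. Vcam1, an adhesion molecule of red pulp macrophages, ranged from 1.13 to 14.7 CPM on starch and from 24.5 to 66.3 CPM on NP (log2 change -2.77, adjusted p = 0.00357). Spic, the transcription factor that red pulp macrophages need and that B cells also express, averaged 18.1 ± 3.45 CPM on starch and 25.2 ± 2.10 CPM on NP, a fall of 0.50 ± 0.11 on the log2 scale (adjusted p = 0.0349).

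The 3 chains of complement C1q, which coats dying cells for uptake, fell together. C1qa, C1qb and C1qc averaged 4.10, 3.30 and 3.25 CPM on starch and 17.2, 13.9 and 15.8 CPM on NP, with log2 changes of -2.19, -2.15 and -2.42 and adjusted p-values of 0.0115, 0.0124 and 0.00306. The receptors Mertk and Axl, through which macrophages engulf apoptotic cells, had log2 changes of -2.58 and -2.35 (adjusted p = 0.00732 and 0.00701). Fcna, a lectin of the complement system, changed by -2.64 and Itgad, an integrin chain of red pulp macrophages, by -2.33 (adjusted p = 0.0124 and 0.00214). Marco, a scavenger receptor of marginal zone macrophages, averaged 1.1 ± 0.818 CPM on starch and 3.76 ± 1.41 CPM on NP, and its log2 change was -1.98 (adjusted p = 0.0306). In NP 5 the level of C1qc was 10.6 CPM, below the 16.8 to 18.1 CPM of the other NP libraries, and still above every starch library.

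Over the macrophage and monocyte list, 10 of 19 measured members fell and 0 rose, against 0.905% and 0.453% of all genes. Their median log2 change was -1.79 against 0.0094 over all genes, with all 19 members counted. The median was -2.23 in HAMS, -0.97 in HAMSA and -1.20 in HAMSB. Of the 19, 9 did not pass and 2 had values above 0. Adgre1, Cd68, Cd14 and Siglec1 were among those that did not pass. So were members shared with monocytes or neutrophils, namely Lyz2 at -0.14 (adjusted p = 0.828), Itgam at -0.19 (adjusted p = 0.665) and Ccr2 at -0.01 (adjusted p = 0.993). Ly6c2, a gene of inflammatory monocytes, had a value in the other direction, 1.67 with an adjusted p of 0.07, and Csf1r, the receptor for macrophage colony-stimulating factor, had -0.99 with an adjusted p of 0.0928. Clec4f, a marker of liver macrophages, was at 0 in every library. The summed level of the whole list overlapped, at 157 to 506 CPM in starch libraries and 293 to 652 CPM in NP libraries, and Lyz2 alone averaged 157 CPM on starch and 170 CPM on NP. In bulk RNA, fewer macrophages in the preparation and less of these transcripts per macrophage cannot be told apart. Without NP 1, NP 3 or NP 4 the list's count of 10 became 6, 5 or 4. Among the 12 largest falls, Hmox1, Slc40a1, C1qa, C1qb and Fcna lost their call without at least 1 library, with Hmox1 at an adjusted p of 0.166 without NP 3, and the other 7 passed in each of the 16 omissions.

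Several genes at a level under 1 CPM on starch fell as clearly. Lepr, the leptin receptor, had between 0 and 0.254 CPM in starch libraries, against 0.706, 0.395, 0.623 and 0.700 CPM in NP libraries (log2 change -2.75 ± 0.39, adjusted p = 0.00306). Col14a1, a fibril-associated collagen, averaged 0.448 ± 0.279 CPM on starch and 2.12 ± 0.781 CPM on NP, with a log2 change of -2.36 (adjusted p = 0.000883). Abcc3, an exporter of conjugated organic anions, averaged 0.902 ± 0.454 CPM on starch and 4.91 ± 1.06 CPM on NP (log2 change -2.54 ± 0.28, adjusted p = 0.00077). Cmbl, a hydrolase, averaged 0.136 ± 0.0533 CPM on starch and 0.688 ± 0.188 CPM on NP (log2 change -2.32, adjusted p = 0.00158). Zbtb16, the transcription factor PLZF of innate-like lymphocytes, averaged 0.587 ± 0.354 CPM on starch and 3.01 ± 1.52 CPM on NP (log2 change -2.52, adjusted p = 0.00306), although NP 4 at 1.11 CPM lay within the starch range. In the other 4 genes no starch library reached an NP library. These levels rest on few reads, and which cells of the preparation express them was not tested.

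Genes at levels typical of B cells fell by less. Cd22, an inhibitory receptor that dampens signals from the B cell receptor, averaged 1938 ± 263 CPM on starch and 2453 ± 266 CPM on NP, a log2 change of -0.35 ± 0.08 (adjusted p = 0.0448), and the ranges overlapped through NP 1 at 2054 CPM. Fcrl5, an Fc receptor-like protein of marginal zone and innate-like B cells, ranged from 46.7 to 124 CPM on starch and from 134 to 159 CPM on NP (log2 change -0.82 ± 0.19, adjusted p = 0.0446). Entpd1 (CD39), an ectoenzyme that breaks down extracellular ATP, averaged 43.3 ± 6.05 CPM on starch and 59.7 ± 2.10 CPM on NP (log2 change -0.47, adjusted p = 0.0194). Gbp5, a guanylate-binding protein induced by interferon gamma, averaged 46.9 ± 6.83 CPM on starch and 62.5 ± 4.12 CPM on NP (log2 change -0.42, adjusted p = 0.0176). In Fcrl5, Entpd1 and Gbp5 every starch library lay below every NP library. Without NP 4 the adjusted p was 0.208 for Cd22, 0.194 for Fcrl5, 0.0983 for Entpd1 and 0.124 for Gbp5. Of the 16 omissions of 1 library, 5 kept the call of Cd22, 4 that of Fcrl5, 12 that of Entpd1 and 15 that of Gbp5.

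The mean over starch diets did not stand for all 3 in every gene. Cd180, a Toll-like receptor relative that modulates B cell responses to lipopolysaccharide, had 143, 149, 172 and 114 CPM in HAMS, 213, 207, 150 and 179 CPM in HAMSA and 324, 298, 228 and 303 CPM in HAMSB, against 313, 302, 336 and 331 CPM in NP. Its mean log2 change was -0.69 ± 0.11 (adjusted p = 0.00579), with -0.15 in HAMSB and an adjusted p of 0.00495 for a difference among the starch diets. Slamf7, a self-ligand receptor of the SLAM family, Gpr155, a membrane protein of lysosomes, and Bcor, a corepressor that partners Bcl6, fell over the mean by 0.65, 0.47 and 0.46, while their values in HAMSB were 0.01, 0.22 and 0.05. Slamf7 averaged 16.8 ± 6.49 CPM over the starch libraries and 24.7 ± 2.90 CPM on NP, and its 4 HAMSB libraries at 21.9 to 27.8 CPM lay within or above the NP range of 20.4 to 26.6 CPM. Within the Toll-like receptor list, Cd180 was the 1 member of 17 measured that fell and 0 rose, against 0.905% and 0.453% of all genes. Il12a, the chain p35 shared by the cytokines IL-12 and IL-35, averaged 14.9 ± 4.00 CPM on starch and 20.9 ± 2.47 CPM on NP (log2 change -0.52, adjusted p = 0.0252, 0.0174 for a difference among the starch diets). Together Il12a and Entpd1 are the 2 of 13 regulatory B cell genes that fell, with 0 higher, against 0.905% and 0.453% of all genes. Il10 had a log2 value of 1.14 with an adjusted p of 0.322. Without NP 3 the adjusted p was 0.151 for Il12a, 0.134 for Bcor and 0.166 for Gpr155, and 0.0774 for Entpd1.

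Per3, a period gene of the circadian clock, fell over the starch mean, with similar values on each diet. It had 12.1, 10.02, 14.8 and 10.4 CPM in HAMS, 10.99, 10.3, 11.7 and 11.9 CPM in HAMSA and 12.6, 12.2, 10.4 and 14.6 CPM in HAMSB, against 15.4, 18.7, 21.4 and 19.6 CPM in NP. The highest starch library, HAMS 5, stayed under the lowest NP library, NP 1. The log2 change was -0.67 ± 0.11 over the mean (adjusted p = 0.009), and -0.67 in HAMS, -0.74 in HAMSA and -0.59 in HAMSB, with an adjusted p of 0.728 for a difference among the 3. Without NP 4 the adjusted p became 0.0733. It was the 1 gene of 17 measured on the clock list that passed, against 1.36% of all genes. Tef, a D-box factor, had 49.0 to 57.9 CPM on starch and 58.4 to 68.0 CPM on NP without overlap, and its log2 value of -0.27 missed the threshold at an adjusted p of 0.0514. Dbp, another D-box factor, had -0.37, Nr1d2 (REV-ERB beta) -0.34 and Per2 -0.46, none past the test (adjusted p = 0.162, 0.0988 and 0.127), while the core activators Arntl and Clock were at 0.02 and -0.08 (adjusted p = 0.915 and 0.831). The hour at which spleens were taken is not given in the sources used here, and its part in the result was not tested.

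D-box factors such as Dbp and Tef bind the letters TTATGTAA or close variants. The 250 bases before the RefSeq start of Per3 (GRCm38.p6, chr4:151044666-151044915, minus strand, written in the direction of the gene) hold that motif at 2 places, shown in capitals. Searched on both strands, TTATGTAA occurs in 0.819% of the 32851 RefSeq mouse promoter windows of the same length, and the match is a description of the letters only.
Per3: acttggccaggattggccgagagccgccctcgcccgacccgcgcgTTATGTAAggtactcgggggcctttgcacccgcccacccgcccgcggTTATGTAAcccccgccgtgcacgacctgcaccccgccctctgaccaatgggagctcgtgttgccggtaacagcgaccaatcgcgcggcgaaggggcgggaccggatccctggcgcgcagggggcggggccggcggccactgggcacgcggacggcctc

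Among the 12 largest rises past the test, ranked in the same way, the receptor Ccr7, which guides lymphocytes towards the T cell zone, showed one of the steadiest differences. It had 265, 302, 198 and 259 CPM in HAMS, 212, 207, 216 and 228 CPM in HAMSA and 198, 207, 196 and 197 CPM in HAMSB, against 142, 140, 129 and 160 CPM in NP. No starch library was as low as the highest NP library, NP 5, and the log2 change was 0.64 ± 0.09 (adjusted p = 0.00306). By diet it was 0.84 in HAMS, 0.60 in HAMSA and 0.48 in HAMSB. Itgb7, the integrin chain that pairs with alpha 4 for entry into gut tissue, averaged 279 ± 41.5 CPM on starch and 196 ± 9.99 CPM on NP, a log2 change of 0.51 ± 0.11 (adjusted p = 0.0393) and again without overlap. These were the 2 of 19 homing genes that rose, and 0 fell, against 0.453% and 0.905% of all genes. The partner chain Itga4 had a log2 value of -0.05 (adjusted p = 0.906), and the egress receptor S1pr1 one of -0.20 (adjusted p = 0.524). Itgb7 lost its call without NP 4, at an adjusted p of 0.183, and kept it in 7 of the 16 omissions of 1 library.

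**Figure D2:**
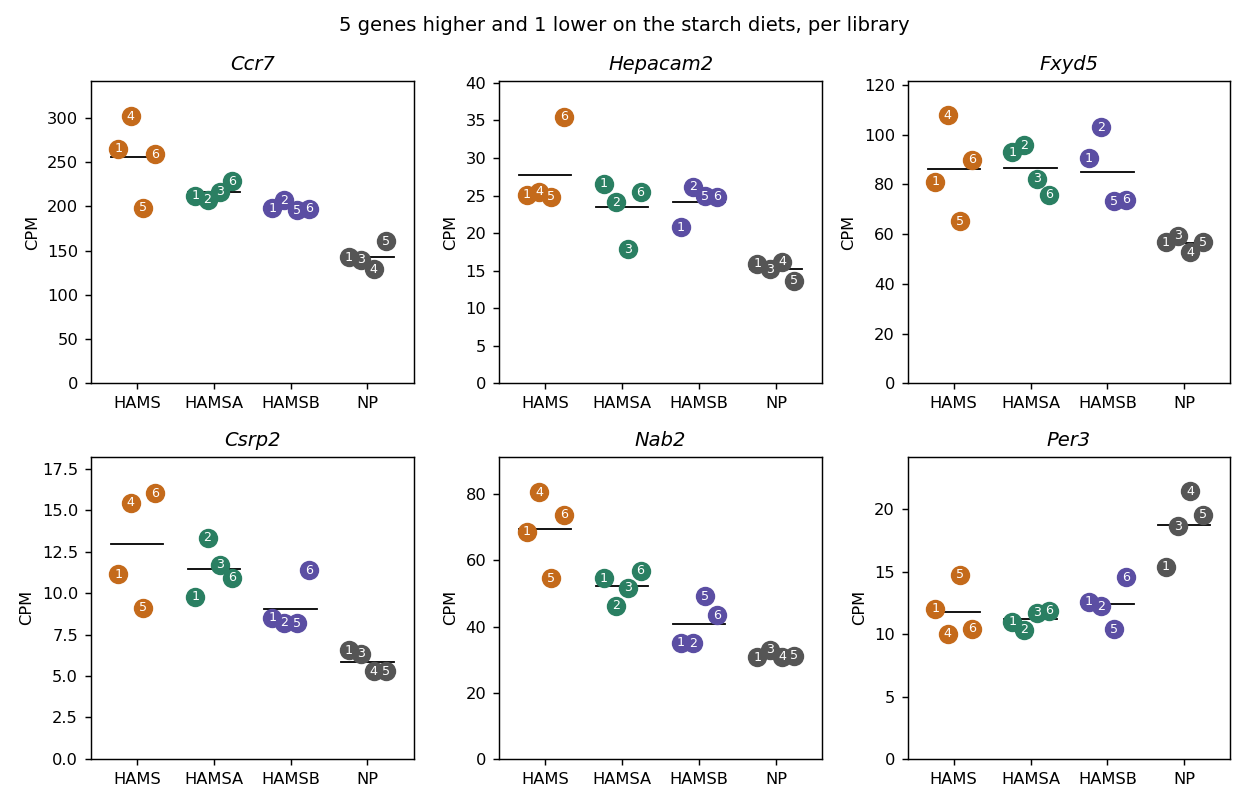
CPM of Ccr7, Hepacam2, Fxyd5, Csrp2, Nab2 and Per3 in each library, grouped by diet, with axes from 0. Points are libraries with their number and lines are diet means, and the 12 starch libraries lie above the 4 NP libraries in the first 5 genes and below them in Per3.

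Hepacam2, an immunoglobulin-like adhesion protein, had 25.1, 25.5, 24.8 and 35.5 CPM in HAMS, 26.6, 24.1, 17.8 and 25.4 CPM in HAMSA and 20.8, 26.2, 24.9 and 24.9 CPM in HAMSB, against 15.9, 15.2, 16.2 and 13.7 CPM in NP. The log2 change was 0.72 ± 0.12 (adjusted p = 0.00732). Fxyd5, a regulator of the sodium pump and of cell adhesion, rose over the starch mean, with log2 values of 0.61, 0.62 and 0.59 in HAMS, HAMSA and HAMSB. It averaged 85.9 ± 12.9 CPM on starch and 56.4 ± 2.76 CPM on NP (log2 change 0.61 ± 0.12, adjusted p = 0.0218). Csrp2, a LIM-domain protein, ranged from 8.16 to 16.02 CPM on starch and from 5.28 to 6.54 CPM on NP (log2 change 0.91 ± 0.16, adjusted p = 0.0109). Chst10, a sulphotransferase that makes the HNK-1 carbohydrate, ranged from 127.28 to 344 CPM on starch and from 107 to 127.08 CPM on NP (log2 change 0.83 ± 0.18, adjusted p = 0.0352), without overlap. Hopx, an atypical homeobox protein, averaged 7.90 ± 1.79 CPM on starch and 4.96 ± 0.326 CPM on NP (log2 change 0.65, adjusted p = 0.028), and Ets2, an ETS-family transcription factor, 57.8 ± 15.9 CPM on starch and 36.1 ± 1.45 CPM on NP (log2 change 0.64, adjusted p = 0.0176). Hopx and Ets2 overlapped between the groups through HAMSB libraries.

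Gpr171, a receptor for the peptide BigLEN, had the largest mean rise of those 12 and an uneven one. Genes that did not pass had larger values, such as Dnaja1 at 1.09 and Fos at 2.22. Its log2 change was 1.01 ± 0.23 (adjusted p = 0.0446), made up of 1.84 in HAMS, 0.84 in HAMSA and 0.36 in HAMSB, and the difference among the 3 had an adjusted p of 0.0185. HAMS libraries held 201 to 322 CPM, while HAMSA 3 at 71.4 CPM lay within the NP range of 52.7 to 95.2 CPM. Of the 12 largest rises, Ccr7, Hepacam2, Nab2 and Ier2 passed in each of the 16 omissions. The other 8 lost their call without NP 4, at adjusted p-values of 0.0727 to 0.194, 7 of them also without NP 3 (0.0890 to 0.206) and 7 without NP 5 (0.0525 to 0.120). Fewer than 4 of the 12 lost it without any other single library.

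**Figure D3:**
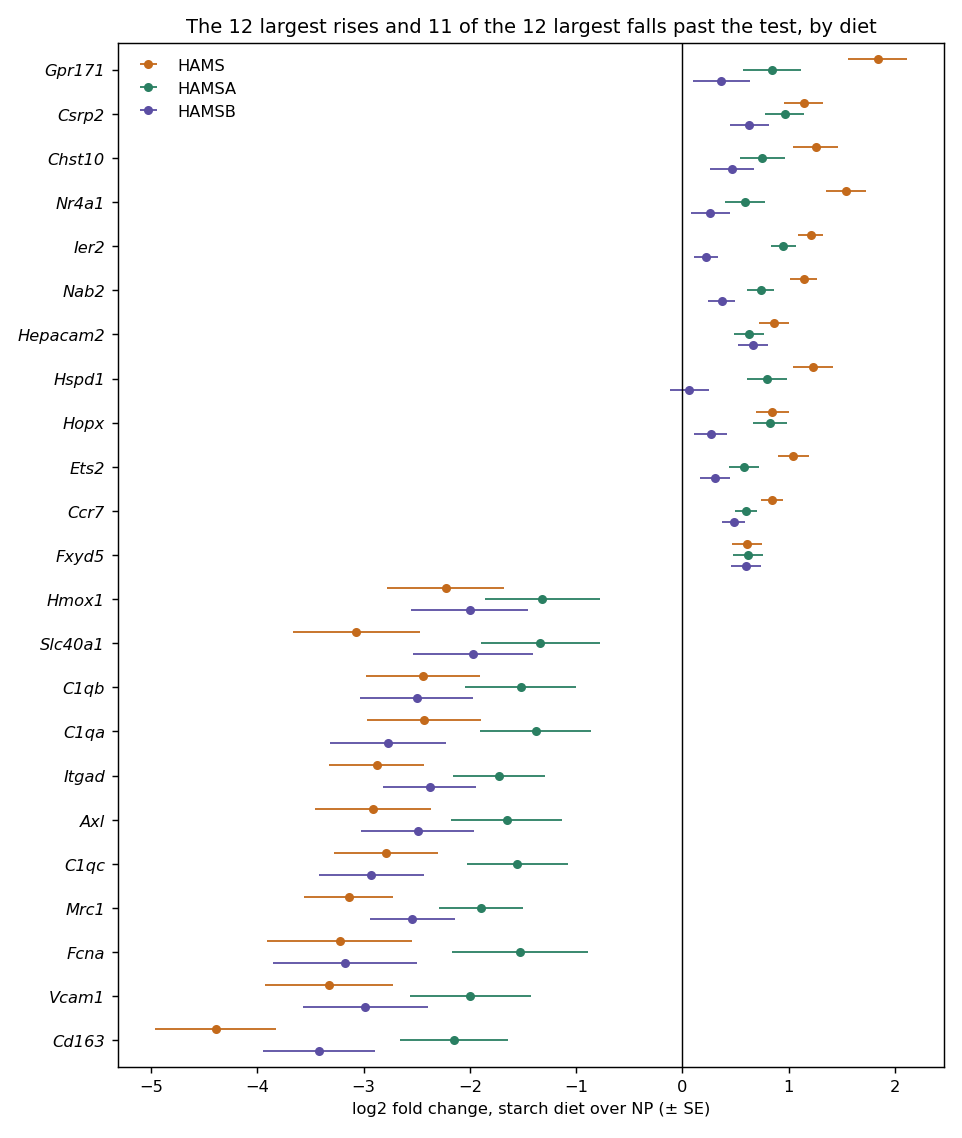
Log2 fold change over NP with its SE in HAMS, HAMSA and HAMSB for the 12 largest rises and 11 of the 12 largest falls of the starch mean among genes past the test. In most of the rises the HAMSB value is the smallest, in the falls the HAMSA value is usually nearest 0, and all 3 diets share the NP libraries.

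Immediate early genes, transcribed within minutes of a stimulus without new protein synthesis, gave more calls in HAMS and HAMSA than in HAMSB. Over the starch mean, 6 of 27 measured members rose (Ier2, Nr4a1, Cd69, Junb, Btg2 and Dusp2) and 0 fell, against 0.453% and 0.905% of all genes. The median log2 value of the list was 0.51 against 0.0094 over all genes. Taken singly, 11 members rose in HAMS, 8 in HAMSA and 0 in HAMSB, against 4.33%, 1.41% and 0.0732% of all genes called in those comparisons, and 12 differed among the starch diets, against 1.5% of all genes. Ier2, a transcriptional regulator, had 120, 149, 115 and 157 CPM in HAMS, 114, 113, 107 and 119 CPM in HAMSA and 55.8, 63.1, 78.6 and 76.1 CPM in HAMSB, against 60.0, 61.1, 55.3 and 58.0 CPM in NP. HAMS and HAMSA libraries were all above the NP range and so were 3 of the HAMSB libraries, while HAMSB 1 lay within it, with a mean log2 change of 0.79 ± 0.10 (adjusted p = 0.00158) and an adjusted p of 0.00181 for a difference among the starch diets.

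Nr4a1, an orphan nuclear receptor that reports recent B cell receptor signalling, averaged 58.7 ± 28.2 CPM on starch and 31.4 ± 2.70 CPM on NP (log2 change 0.80 ± 0.16, adjusted p = 0.023), with 1.54 in HAMS, 0.59 in HAMSA and 0.26 in HAMSB. Nab2, the corepressor of Egr factors and itself one of their targets, rose by 0.75 ± 0.11 (adjusted p = 0.00312) at 54.1 ± 14.3 CPM on starch and 31.4 ± 0.996 CPM on NP. The Egr genes did not pass, with log2 values of 0.27 for Egr1, -0.16 for Egr2 and -0.34 for Egr3 (adjusted p = 0.413, 0.567 and 0.299). Btg2, an antiproliferative gene, had 402, 407, 327 and 356 CPM in HAMS, 293, 282, 331 and 328 CPM in HAMSA and 289, 317, 256 and 265 CPM in HAMSB, against 225, 222, 208 and 244 CPM in NP. It was the 1 of the 6 whose starch libraries all lay above NP, with a log2 change of 0.51 ± 0.08 (adjusted p = 0.00732). Junb, a subunit of the AP-1 transcription factor, had a log2 change of 0.56 (adjusted p = 0.0161). Cd69, the early activation antigen, changed by 0.58 (adjusted p = 0.0479), and Dusp2, a nuclear phosphatase of MAP kinases, by 0.43 (adjusted p = 0.0248) with -0.03 in HAMSB. Fos had the largest value of the list, 2.22, at an adjusted p of 0.0857, and all its starch libraries were above the NP libraries. Without NP 3, NP 4 or NP 5 the list's count of 6 became 3, 1 or 2.

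**Figure D4:**
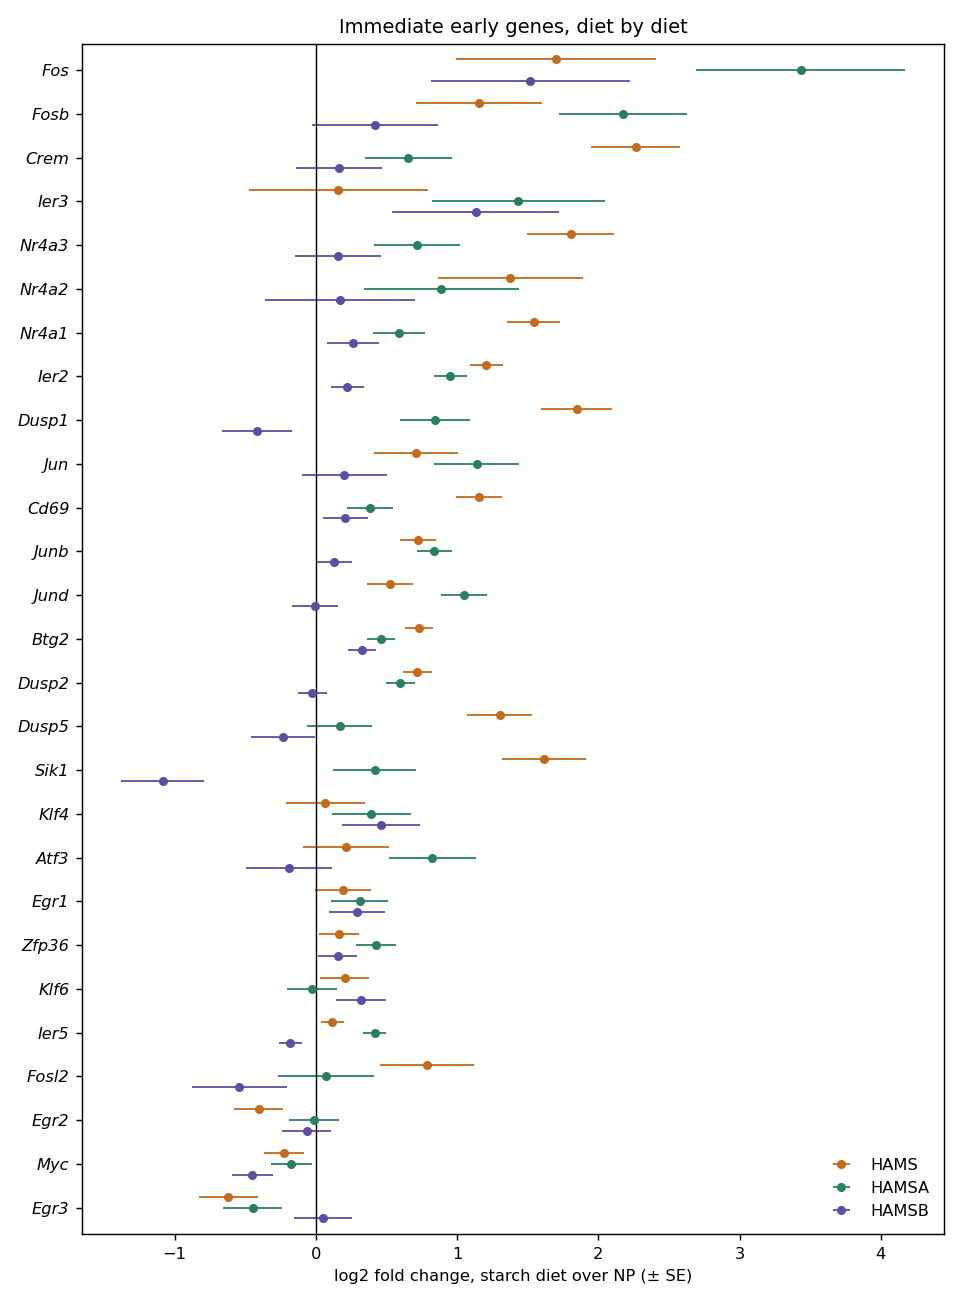
Log2 fold change over NP with its SE in each starch diet for the 27 measured immediate early genes, ordered by the value of the starch mean. HAMS and HAMSA values are mostly right of 0, and HAMSB values lie left of 0 in 10 of the 27, furthest in Sik1.

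Several of these genes are classical targets of the factor CREB, which binds the cAMP response element TGACGTCA or its core TGACG. Of the 6 genes that rose, 4 had an entry among the RefSeq promoters (GRCm38.p6), and 3 of those held TGACG on either strand in the 250 bases before the start, Dusp2 being the exception. The core occurs in 17.8% of the 32851 promoter windows and the full element, which contains it, in 1.55%. The 3 windows are printed in the direction of the gene with TGACG, or CGTCA for the other strand, in capitals. They lie at chr1:134079156-134079405 for Btg2 (minus strand), chr8:84978749-84978998 for Junb (minus strand) and chr15:101266596-101266845 for Nr4a1 (plus strand). Btg2 holds the full element, Junb 1 core and Nr4a1 4 cores on the other strand.
Btg2: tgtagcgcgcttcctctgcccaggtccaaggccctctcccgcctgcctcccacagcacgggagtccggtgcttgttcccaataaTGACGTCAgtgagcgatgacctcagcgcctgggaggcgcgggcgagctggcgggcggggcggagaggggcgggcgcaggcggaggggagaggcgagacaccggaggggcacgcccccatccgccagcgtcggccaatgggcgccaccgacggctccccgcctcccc
Junb: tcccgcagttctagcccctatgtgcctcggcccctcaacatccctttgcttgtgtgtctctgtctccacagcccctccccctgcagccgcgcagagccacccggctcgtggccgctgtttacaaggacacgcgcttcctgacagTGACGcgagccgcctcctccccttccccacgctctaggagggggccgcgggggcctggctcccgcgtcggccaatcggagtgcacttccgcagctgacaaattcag
Nr4a1: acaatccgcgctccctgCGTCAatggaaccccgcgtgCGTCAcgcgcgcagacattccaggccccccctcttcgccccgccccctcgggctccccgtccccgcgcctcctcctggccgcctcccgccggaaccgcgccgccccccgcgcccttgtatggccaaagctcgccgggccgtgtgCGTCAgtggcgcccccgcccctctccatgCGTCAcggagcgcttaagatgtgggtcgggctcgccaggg

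Stress genes showed the same order of diets. Hspd1, the mitochondrial chaperonin HSP60, was the 1 of 21 heat shock genes that rose over the starch mean, with 200 ± 79.1 CPM on starch and 117 ± 12.7 CPM on NP (log2 change 0.70 ± 0.16, adjusted p = 0.0425). In HAMS 16 of the 21 rose, in HAMSA 1 and in HAMSB 0, against 4.33%, 1.41% and 0.0732% of all genes called in those comparisons. Among the starch diets 12 of the 21 differed, against 1.5% of all genes. The list's median log2 value was 1.15 in HAMS, 0.54 in HAMSA and -0.15 in HAMSB. Dnaja1, an HSP40 co-chaperone, had a mean log2 value of 1.09 that missed the threshold at an adjusted p of 0.0514. From the unfolded protein response list, Trib3, a pseudokinase induced by Atf4, rose by 0.59 ± 0.10 (adjusted p = 0.009) at 12.6 ± 2.27 CPM on starch and 8.27 ± 0.717 CPM on NP, without overlap. Herpud1, a component of endoplasmic reticulum degradation, rose by 0.32 ± 0.08 (adjusted p = 0.0455) with -0.03 in HAMSB. They were the 2 of 24 members that rose, and 0 fell, against 0.453% and 0.905% of all genes. Without NP 3 the adjusted p was 0.0644 for Trib3, 0.207 for Herpud1 and 0.197 for Hspd1. Of the 16 omissions of 1 library, 15 kept the call of Trib3, 5 that of Hspd1 and 2 that of Herpud1.

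Other rises were largest in HAMS. Il10ra, the binding chain of the interleukin-10 receptor, had 518 to 683 CPM in HAMS, 311 to 515 CPM in HAMSA and 283 to 301 CPM in HAMSB, against 271 to 330 CPM in NP. Its mean log2 change of 0.47 (adjusted p = 0.0481) was made of 1.0, 0.42 and -0.02, and the difference among the starch diets had an adjusted p of 0.00356. Plaur, the urokinase receptor, followed the same order with 1.1, 0.44 and -0.17 around a mean of 0.46 (adjusted p = 0.0285, and 0.000359 among the starch diets). Slc2a1, the glucose transporter GLUT1, rose by 0.47 ± 0.11 (adjusted p = 0.0426) and Cyp51, a sterol demethylase of cholesterol synthesis, by 0.49 ± 0.12 (adjusted p = 0.0498). They were the 1 of 17 glycolysis and the 1 of 23 cholesterol genes past the test, against 1.36% of all genes. Without NP 4 the adjusted p was 0.191 for Il10ra and Slc2a1, 0.144 for Plaur and 0.219 for Cyp51. Of the 16 omissions of 1 library, 3 kept the call of Il10ra, 5 that of Slc2a1, 13 that of Plaur and 3 that of Cyp51. In all, 44 of the 204 genes differed among the starch diets, 25 of them higher and 19 lower, against 1.5% of all genes.

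Markers of other cells did not all follow the macrophage genes. T cell genes had a median log2 value of 2.19 over 22 members, and 0 passed the test. All of them were above 0, as were 7769 of all 15021 genes. The T cell sum ranged from 89.1 to 523 CPM in starch libraries and from 93.3 to 157 CPM in NP libraries. Neutrophil genes had a median of 1.77 over 16 members, again all above 0 with 0 past the test. They summed to between 9.32 and 379 CPM on starch and between 14.03 and 82.4 CPM on NP. Members of 1 list can move together, so these signs are not independent of each other. Ncr1, the natural killer receptor NKp46, rose by 3.01 ± 0.70 (adjusted p = 0.0465) at 2.01 ± 2.06 CPM on starch and 0.211 ± 0.212 CPM on NP. It was the 1 of 12 NK and cytotoxic genes that passed, against 1.36% of all genes. It lost its call without NP 3 (adjusted p = 0.204) and kept it in 7 of the 16 omissions of 1 library. The highest starch library for Ncr1, HAMSB 2 at 8.05 CPM, also had the highest T cell and NK sums. Erythroid genes summed to between 136 and 6883 CPM on starch and between 161 and 1681 CPM on NP, with a median log2 value of -2.07 in HAMS and 1.88 in HAMSA. Their part in the B cell results was not tested.

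**Figure D5:**
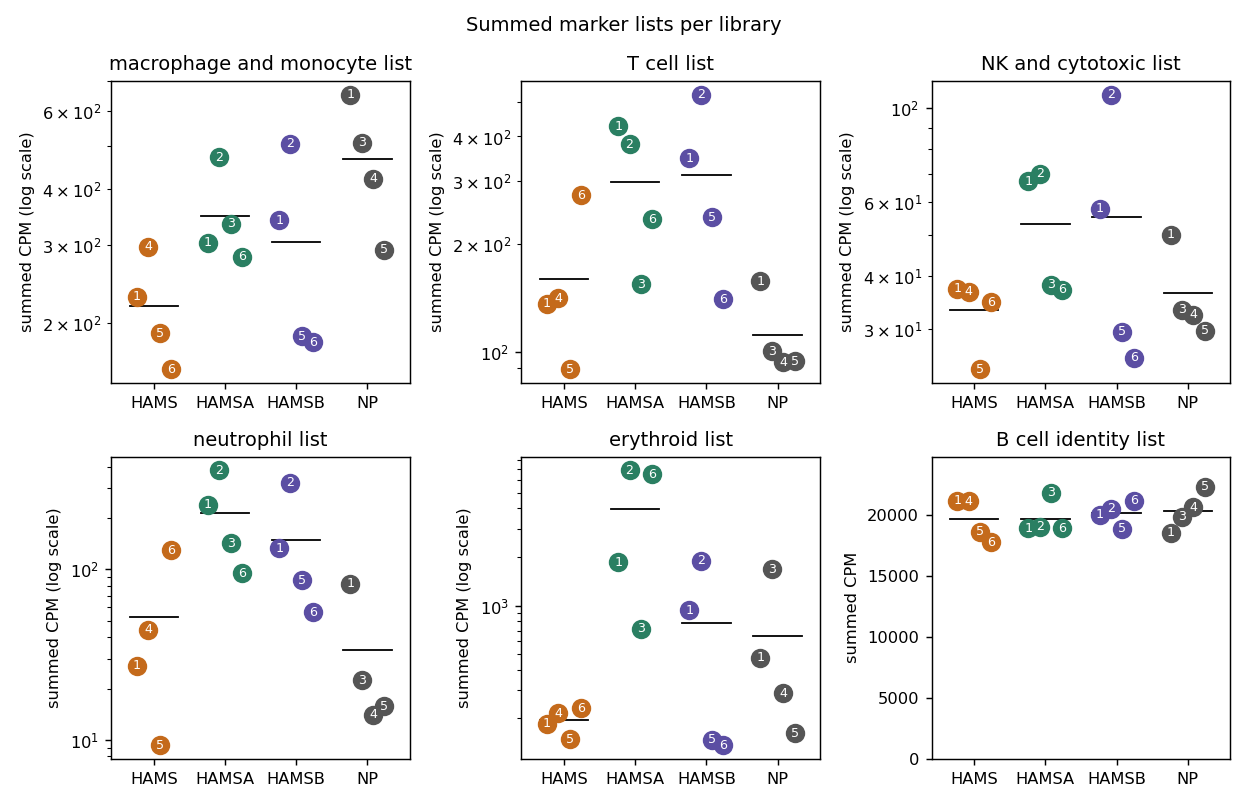
Summed CPM of 6 marker lists in each library, grouped by diet, on log axes except for B cell identity, which starts at 0. Points are libraries with their number and lines are diet means, and starch and NP libraries overlap in every list, with T cell and neutrophil sums reaching higher on starch.

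With the summed level of the macrophage list as a covariate, chosen after seeing the data, 49 of the 52 named genes that had passed did so again. The fit with this covariate called 2266 genes for the starch mean, against 204 without it, so passing again sets a gene little apart. Calls were lost for Itgb7 (log2 value 0.38, adjusted p = 0.0536), Hmox1 (-0.91, 0.0742) and Aldh1a2 (-0.73, 0.0970). Of genes outside that list, log2 changes were 0.66 for Ccr7, 0.79 for Fxyd5, 0.68 for Hepacam2 and -0.76 for Per3 (adjusted p = 0.00353, 0.00229, 0.00966 and 0.00544). Cd163, itself on the list, was at -2.58, and 7 members of the list were still called lower. Lyz2, which did not pass, made up a large part of the summed level, so the covariate is not a measure of the falling members alone. Whether the changes in those genes or in the others are independent of macrophage content was not tested.

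Receptors and carriers of short-chain fatty acids did not pass the test in any direction. Of 12 listed, 7 were measured and 0 were called over the mean or in any of the 3 diets. Over the mean 1.36% of all genes were called, so a list this short need hold no call. Ffar2 averaged 18.4 ± 10.01 CPM on starch and 29.8 ± 3.87 CPM on NP (log2 value -0.72 ± 0.46, adjusted p = 0.426). Ffar3 averaged 0.935 ± 0.424 CPM on starch and 0.777 ± 0.262 CPM on NP (adjusted p = 0.716). Hcar2, listed in the table under its older symbol Niacr1, averaged 0.407 ± 0.405 CPM on starch and 0.936 ± 0.183 CPM on NP (log2 value -1.38 ± 0.54, adjusted p = 0.194). Histone deacetylases and acetyltransferases gave 0 calls among 19 genes, against that share of 1.36%, with a median log2 value of 0.0121.

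Genes of antigen presentation and costimulation also gave no call over the starch mean, where 1.36% of all genes were called. Cd86 averaged 69.3 ± 14.3 CPM on starch and 58.5 ± 8.16 CPM on NP, Cd80 3.49 ± 0.835 CPM on starch and 4.03 ± 0.864 CPM on NP, and Cd40 188 ± 23.6 CPM on starch and 214 ± 24.02 CPM on NP (adjusted p = 0.352, 0.598 and 0.316). H2-K1, H2-D1 and H2-Aa had log2 values of 0.32, 0.21 and 0.23 with SE of 0.16, 0.12 and 0.14 (adjusted p = 0.294, 0.361 and 0.395). The cell cycle list had 39 of 40 members above 0 and 0 past the test, where 7769 of all 15021 genes were above 0. Its medians were 0.04 in HAMS, 0.74 in HAMSA and 0.38 in HAMSB. A difference of the starch mean from NP had a median SE of 0.145 on the log2 scale.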

How the data were processed

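RNA was poly(A)-selected and made into stranded libraries from negatively selected splenic B cells, 1 library per sample. Per the submitters' processing notes, the authors used STAR, featureCounts of Subread, edgeR and limma, but their versions, the genome build and the annotation are not given in the sources used here. Per the file headers, the authors deposited a table of unscaled read counts for 39179 genes, made for reverse-stranded libraries, with a summary of read classes. Reads that map to several places or to overlapping genes were not counted, so genes with a close copy, such as Hspa1a, Hspa1b and H2 genes, are undercounted. Coordinates are from GENCODE M21 (GRCm38), matched by identifier for 37693 genes.

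From these counts, genes passing edgeR's filter (minimum count 10) were kept, scaled by TMM and fitted with 1 mean per diet over 16 libraries (edgeR 4.0.16, R 4.3.3, 12 residual degrees of freedom, variation between libraries of a diet 22.1%). The mean of HAMS, HAMSA and HAMSB was set against NP by the quasi-likelihood test, with Benjamini-Hochberg adjustment over all 15021 genes and a threshold of 0.05. Further tests compared each diet with NP and the 3 starch diets with each other. CPM use TMM-scaled library sizes. Just inside the threshold were Fbxw10 and Aldh1a2 (adjusted p = 0.0498) and just outside it Ube2b (0.0501) and Zfp239 (0.0510). Counts of 15021 genes were also simulated, with any change set to the same fold in all 3 starch diets, unlike the uneven changes seen here. The comparison of the starch mean with NP called 25 of 50 genes changed 1.5-fold, 44 of 50 at 2-fold and 50 of 50 at 4-fold. It also called 9 unchanged genes. The stricter test of the same direction in all 3 diets called 9, 36 and 48 of 50 at those folds.

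The members and lists were chosen with earlier results of these data known, 49 lists in all. Named are genes past the test of the starch mean, of 1 sign in all 3 diets, with an average log2 CPM of at least 1 (12 largest rises and 12 falls, without V, D and J segments and clone-numbered genes), up to 10 by the smallest largest p and up to 6 by the difference among starch diets, up to 4 per list, and 9 single genes. Of the 12 falls, 1 is not reported here. Further list members were named after their values were seen. Tried were DESeq2 1.42.0, other scalings and filters, a replicate block, covariates, diets or libraries left out, and subsets by number. No 2 libraries of a diet agreed within sampling noise.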

Additional observations from a re-analysis of the deposited data

Results flagged for a closer look

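Within a diet, 1 library stood apart from the other 3 in 9 of 192 sets of 4 libraries examined (5 read measures and the genes named other than as list members), where chance alone marks about 1 in 20, by a gap, relative to the set's range, above Dixon's critical value for 4 values. On the log2 CPM scale the gap was 0.924 of the range for Hepacam2 in HAMS, where HAMS 6 had 35.5 CPM and the others 24.8 to 25.5 CPM, and 0.852 for Ffar3, where HAMS 6 had 1.20 CPM and the others 0.729 to 0.789 CPM. In HAMSB it was 0.872 for Csrp2, with HAMSB 6 at 11.4 CPM and the others at 8.16 to 8.52 CPM, and 0.873 for H2-K1, with HAMSB 2 at 1358 CPM and the others at 910 to 957 CPM. In NP it was 0.860 for C1qc and 0.888 for Slamf7, both lowest in NP 5 at 10.6 and 20.4 CPM, against 16.8 to 18.1 and 25.8 to 26.6 CPM in the other NP libraries. For Nr4a1 it was 0.839, with NP 4 at 27.4 CPM and the others at 32.2 to 33.2 CPM, and for Hspd1 0.851, with NP 1 at 136 CPM and the others at 109 to 112 CPM. For counts assigned to genes in HAMSA it was 0.847, with 30723300 in HAMSA 1 and 15054000 to 17453500 in the other 3.

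The size of the difference from NP itself differed among the starch diets in 16 of the named genes past the test of the starch mean, by edgeR's quasi-likelihood test. Adjusted p-values were 0.000359 for Gpr155 and for Plaur, 0.000941 for Slamf7, 0.00180 for Bcor, 0.00181 for Ier2, 0.00356 for Il10ra, 0.00464 for Nr4a1, 0.00495 for Cd180, 0.00797 for Herpud1, 0.0133 for Nab2 and for Hspd1, 0.0155 for Junb, 0.0174 for Il12a, 0.0177 for Slc2a1, 0.0185 for Gpr171 and 0.0301 for Ets2. In 15 of the 16 HAMS was furthest from NP, and in Junb HAMSA was, at 0.84 against NP where HAMS had 0.72. The log2 values in HAMS, HAMSA and HAMSB were 1.14, 0.74 and 0.37 for Nab2 and 1.05, 0.58 and 0.31 for Ets2.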

How the results depend on the processing

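The main counts were 204 for the starch mean, 650, 212 and 11 for HAMS, HAMSA and HAMSB against NP, 226 among the starch diets and 0 for the same direction in all 3. DESeq2 gave 917, 1264, 1295, 124, 843 and 2. Library totals gave 361 for the starch mean and 344 for HAMSA, no filter 75 for HAMSA, and 1 CPM in 4 libraries 7 for HAMSB. Adjusting for reads that fell outside exons, HAMS gave 1157, HAMSA 9 and HAMSB 43. Pooling the starch libraries as 1 group gave 38 for the starch mean. Without HAMS libraries the counts were 44 for the starch mean, 396 for HAMSA, 1 for HAMSB and 111 among the starch diets, without HAMSA 104 for the starch mean and 0 for HAMSB, and without HAMSB 810 for the starch mean, 64 for HAMSA, 0 among the starch diets and 2 for the same direction. Libraries numbered 1 to 4 gave 2039, 1250, 2694, 94, 42 and 8, in the order used for DESeq2. Libraries numbered 5 and 6, with 1 NP library that is assumed to vary like the others, gave 0, 37, 31, 1 and 119, and 0 for the same direction. The macrophage list as covariate, added after seeing the data, gave 2266, 1826, 3289, 274 and 3 for the starch mean, HAMS, HAMSA, HAMSB and the same direction. The causes of these shifts were not tested. Leaving out 1 library gave 40 to 487 for the starch mean, 235 to 722 for HAMS, 0 to 589 for HAMSA, 0 to 24 for HAMSB, 86 to 339 among the starch diets and 0 throughout for the same direction. Counts for the remaining settings lay within 1.5 times the main ones. Values changed sign with numbers 5 and 6 for H2-K1 (-0.12), H2-Aa (-0.24) and Ffar3 (-0.34), and with the macrophage covariate for Ffar3 (-0.086), none of them called. Of 52 named genes that passed, 19 did so in all 16 omissions.

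Same-numbered libraries of different diets did not deviate together throughout (correlation of deviations over 0.1 in 9 of 15 pairs, -0.50 to 0.68). Their median correlation was 0.101, against -0.115 in the 81 other pairs of libraries from different diets. Of 16 libraries, 3 correlated best with their own number. The numbers were not taken to pair the samples, and whether same-numbered libraries share a source of variation was not tested. With a replicate block the counts were 51, 378, 0, 5 and 92 for the starch mean, HAMS, HAMSA, HAMSB and among the starch diets, and 1 immediate early gene in place of 6. Outside that block, the immediate early count was 12 with DESeq2 and without HAMSB, 11 with numbers 1 to 4, 1 without HAMS and 0 on pooling. The macrophage count of 10 became 5 on pooling and 6 without HAMS. Depth limits genes near the filter, where a few reads make the value.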

Other observations

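Metallothionein Mt2, which binds zinc and responds to glucocorticoids and metals, rose over the starch mean by 1.49 ± 0.33 on the log2 scale (edgeR adjusted p = 0.0402). It had 1.35, 2.28, 1.02 and 1.07 CPM in HAMS, 2.60, 4.10, 5.46 and 2.29 CPM in HAMSA and 2.01, 2.47, 0.701 and 1.47 CPM in HAMSB, against 0.706, 0.741, 0.785 and 0.676 CPM in NP. HAMSB 5 was the 1 starch library within the NP range. It was the 1 of 7 metallothionein and zinc genes that passed, against 1.36% of all genes. Its call was lost without NP 3 (adjusted p = 0.169) and kept in 8 of the 16 omissions of 1 library. Aldh1a2, the retinaldehyde dehydrogenase that makes retinoic acid, averaged 0.632 ± 0.209 CPM on starch and 1.28 ± 0.280 CPM on NP, a log2 change of -1.03 ± 0.25 (adjusted p = 0.0498). It was the 1 of 8 measured vitamin D and retinoid genes that passed, against 1.36% of all genes. Without NP 4 its adjusted p was 0.230, and its call was kept in 3 of the 16 omissions.

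Type I interferon genes gave 0 calls among 29 over the starch mean, against 1.36% of all genes. Their medians were 0.14 in HAMS, 0.11 in HAMSA and 0.46 in HAMSB. Marginal zone genes gave 0 calls among 15 against the same share, with a median of -0.21. Over the starch mean 12 of them were below 0, as were 7252 of all 15021 genes.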
